A study of Homo sapiens with 2 samples.

Results

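The extracellular matrix glycoproteins described here are products of 10 genes: the tenascin TNC, the fibrillins FBN1 and FBN2, fibronectin (FN1), vitronectin (VTN), the nidogens NID1 and NID2, osteonectin (SPARC), thrombospondin-1 (THBS1) and fibulin-1 (FBLN1). They were taken by gene symbol from a list written with earlier results of these arrays known, and all 10 were found among the 18417 genes that a single platform symbol named, each with 1 transcript cluster, as the array calls its probe groups. RNA came from ACHN, an established human renal carcinoma cell line labelled as clear cell, transfected either with a short hairpin RNA (shRNA) against Kindlin-2 or with a control shRNA. Cells of both groups grew in minimum essential medium with 10% serum and 400 µg/ml of the selection drug G418. Each group had 1 Affymetrix Human Gene 1.0 ST array (n = 1), so no value below has a replicate error and no test was possible. The sources used here do not say whether the transfected cells were a pool or a single clone. The shRNA therefore cannot be told apart from the culture and the array it came on.

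Kindlin-2, encoded by FERMT2, binds the cytoplasmic tails of beta integrins and helps to switch these receptors on. Fibronectin, vitronectin, tenascin-C and thrombospondin are extracellular ligands that integrins recognise, and integrins in turn help cells to assemble fibronectin into fibrils. Fibrillins build the microfibrils on which elastic fibres form, and nidogens link laminin to type IV collagen in basement membranes, which in the kidney surround every tubule. SPARC, thrombospondins and tenascin-C are often called matricellular proteins because they modulate adhesion more than they bear load.

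The label was checked on FERMT2, which read 8.26 (log2) with Kindlin-2 shRNA and 9.37 with control shRNA, so 46.4% of the control level remained. All values are log2 scale signals after robust multi-array averaging (RMA). A difference is the value with Kindlin-2 shRNA minus that with control shRNA, and the fold is that difference taken out of the log2 scale. A gene passed the filter on dim genes when the higher of its 2 values reached 6.52, the median over both columns of values. That left 11822 genes, whose difference had a median of -0.02 and a standard deviation over genes of 0.40, and 89.7% of them differed by less than 1.5-fold. For 114 of them the decrease was larger than that of FERMT2. Of the markers of renal epithelium, 8 of 8 measured passed the filter, with PAX8 at 11.29 under knockdown and 11.43 in the control. None of 6 leukocyte markers and 1 of 7 endothelial markers passed. The fibroblast proteoglycans DCN (3.39 and 3.46) and LUM (3.32 and 3.27) were dim on both arrays, but 5 of 8 fibroblast markers passed, THY1 with 11.06 and 10.88. Of 6 smooth muscle and pericyte markers 5 passed, with RGS5 at 9.65 and 10.81 and ACTA2 at 9.64 and 10.40, under knockdown and control.

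**Figure D1:**
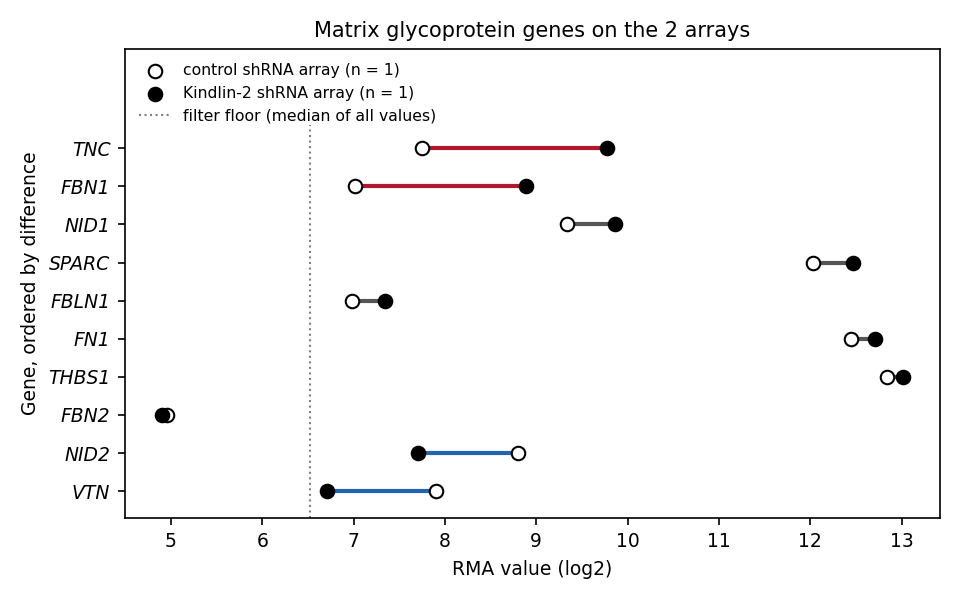
RMA value (log2, horizontal axis) of each of the 10 genes in the control shRNA array (open circles) and the Kindlin-2 shRNA array (filled circles), with lines in red where the knockdown reading was 2-fold or more above control and in blue where it was 2-fold or more below. TNC and FBN1 lie 2.02 and 1.87 log2 units to the right of their control values, NID2 and VTN lie 1.09 and 1.20 units to the left, and FBN2 sits below the dotted filter floor on both arrays.

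The matrix glycoprotein genes did not move as a block. TNC and FBN1 were 4.07-fold and 3.66-fold higher with Kindlin-2 shRNA, VTN and NID2 were 2.29-fold and 2.13-fold lower, and the other 6 differed by less than 1.5-fold. The 9 genes that passed the filter did so on both arrays, so none of them was let in by a high value in 1 array alone. Of these 9, 2 lay 2-fold or more above control, as did 1.41% of all genes kept, and 2 lay 2-fold or more below, as did 1.26%. The count was the same at 1.5-fold, with 2 higher against 5.1% of all genes kept and 2 lower against 5.23%. Their median difference was 0.36, beside -0.02 over all genes kept. Of the 9, 7 lay above 0 and 2 below, while of all genes kept 5489 lay above and 6285 below. Because of how the 10 genes were listed, these shares describe the list and are not evidence about it.

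Tenascin-C (transcript cluster 8163637), a large oligomeric glycoprotein that is sparse in most adult tissue and abundant in wounds and tumour stroma, read 9.78 with Kindlin-2 shRNA and 7.75 with control shRNA (log2). For 19 of the 11822 genes the increase was larger. Genes were also sorted by mean value into 10 bins of like brightness, and 6 of the 1182 genes in the bin of TNC differed by more in either direction. TNC lies on chromosome 9, where the median difference of the genes kept was -0.31, so it stood 2.34 above the middle of its chromosome. Of its paralogs, TNR, mainly of the nervous system, and TNN were dim on both arrays, with differences of 0.20 and 0.05 between values of 5.16 to 5.64. TNXB was not analysed here.

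Fibrillin-1 (cluster 7988467), the main structural protein of connective tissue microfibrils, read 8.88 with Kindlin-2 shRNA and 7.01 with control shRNA. The difference of 1.87 was exceeded by the increases of 24 genes, and by 3 of the 1182 genes of its brightness bin in either direction. Fibrillin-2 (cluster 8113800), the paralog best known from developing tissue, read 4.90 and 4.96, did not pass the filter and differed by -0.06. With so dim a signal and no detection call, a change of FBN2 could not be measured, and the paralogs were not compared. FBN3 was just at the floor, at 6.56 with the knockdown, and differed by 0.06.

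Vitronectin (cluster 8013606), a plasma and matrix protein that binds alpha-v integrins and the urokinase receptor, showed the largest decrease of the 10 genes. It read 6.71 with Kindlin-2 shRNA and 7.91 with control shRNA, a difference of -1.20. The decrease was larger for 96 of the genes kept, and 12 of the 1182 in its brightness bin differed by more in either direction. The knockdown value lies close to the filter floor of 6.52.

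The nidogens parted. Nidogen-2 (cluster 7979133) read 7.71 with Kindlin-2 shRNA and 8.80 with control shRNA, a difference of -1.09, and the decrease of 121 genes was larger. Nidogen-1 (cluster 7925320), which binds the same laminin and collagen partners, was the reverse, at 9.86 with Kindlin-2 shRNA and 9.34 with control shRNA, 1.43-fold higher. The 2 differences were 1.61 log2 units apart. For NID1, 176 of the 1182 genes of like brightness differed by more, whereas for NID2 29 of 1182 did.

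Fibronectin (cluster 8058765) and thrombospondin-1 (cluster 7982597) were close to their control values. FN1 read 12.71 with Kindlin-2 shRNA and 12.45 with control shRNA, a difference of 0.26, and 444 of the 1183 genes in the brightest bin differed by more. THBS1, an adhesive glycoprotein that also activates latent TGF-beta, read 13.01 and 12.84, a difference of 0.17, and 671 of the same 1183 genes differed by more. SPARC (cluster 8115327), a collagen-binding protein, read 12.46 and 12.03 in the same order, 1.35-fold higher. FBLN1 (cluster 8073775), which binds fibronectin, nidogen-1 and laminin, read 7.35 and 6.98, 1.28-fold higher. These 4 genes and NID1 all read higher with Kindlin-2 shRNA, with differences of 0.17 to 0.52.

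**Figure D2:**
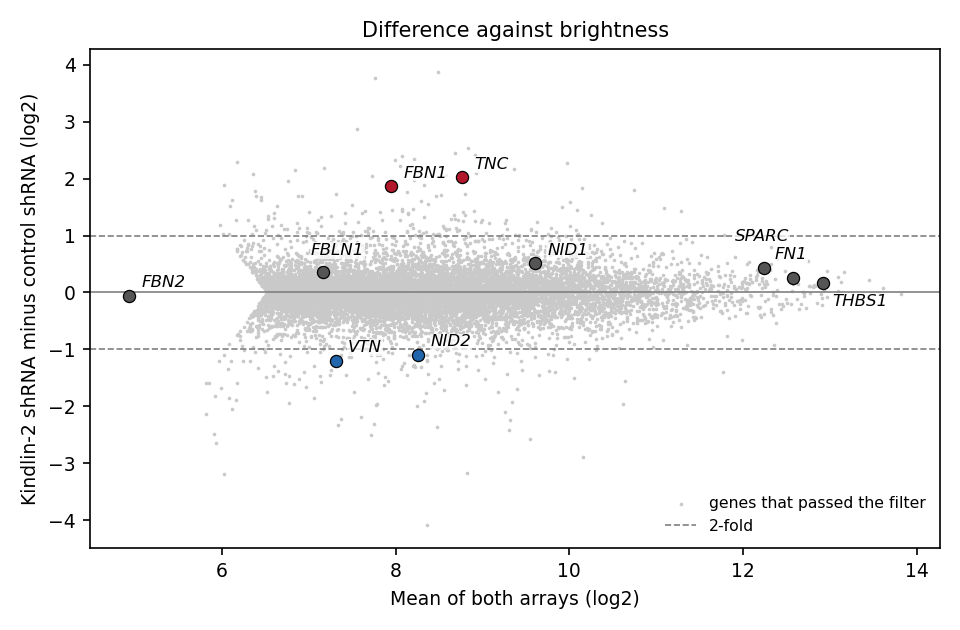
Difference between the arrays (Kindlin-2 shRNA minus control shRNA, log2, vertical axis) against the mean of both arrays (log2, horizontal axis), with the 10 matrix glycoprotein genes named over all 11822 genes that passed the filter (grey); dashed lines mark 2-fold. TNC and FBN1 stand above the upper line and VTN and NID2 below the lower one, while FN1, THBS1 and SPARC lie at the bright end near 0.

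Upstream sequences of the 4 genes that passed 2-fold are shown because they went in opposite directions. They are the 250 bases before the annotated gene start, from RefSeq on GRCh38.p14, written in the direction of transcription, and all 4 genes are on the minus strand. Capitals mark matches, on either strand, to a GC box (GGGCGG) or to the core recognised by TEAD factors (GGAATG). Also searched were the TATA box (TATAAA) and the AP-1 site (TGANTCA). The stretches are chr9:115118158-115118407 for TNC, chr15:48644971-48645220 for FBN1, chr17:28370308-28370557 for VTN and chr14:52069060-52069309 for NID2.
TNC: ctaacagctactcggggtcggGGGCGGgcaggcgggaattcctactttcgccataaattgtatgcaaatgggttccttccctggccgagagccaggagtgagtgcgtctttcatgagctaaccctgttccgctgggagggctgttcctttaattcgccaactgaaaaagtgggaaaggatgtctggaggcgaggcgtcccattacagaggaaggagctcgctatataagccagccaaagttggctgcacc
FBN1: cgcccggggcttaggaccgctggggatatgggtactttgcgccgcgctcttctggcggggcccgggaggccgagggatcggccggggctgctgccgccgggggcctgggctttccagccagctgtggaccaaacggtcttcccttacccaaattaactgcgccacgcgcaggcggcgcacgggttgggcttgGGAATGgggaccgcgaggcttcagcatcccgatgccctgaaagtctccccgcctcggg
VTN: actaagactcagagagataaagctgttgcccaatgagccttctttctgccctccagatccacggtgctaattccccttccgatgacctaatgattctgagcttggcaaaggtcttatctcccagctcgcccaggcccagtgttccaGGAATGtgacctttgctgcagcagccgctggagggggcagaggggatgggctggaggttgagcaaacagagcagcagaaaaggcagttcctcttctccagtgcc
NID2: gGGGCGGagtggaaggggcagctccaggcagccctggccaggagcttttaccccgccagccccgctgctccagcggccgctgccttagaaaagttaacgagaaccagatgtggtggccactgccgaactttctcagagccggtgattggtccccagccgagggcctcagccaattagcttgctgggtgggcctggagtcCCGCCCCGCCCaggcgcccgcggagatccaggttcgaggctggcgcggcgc

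Matches were found in genes of both directions. A TEAD core was found in FBN1, which was higher, and in VTN, which was lower, 58 and 104 bases before the start. TNC held 1 GC box and NID2 held 3. SPARC and THBS1 also had a TEAD core, and FBN2 (3), FN1 (6), NID1 (1), THBS1 (4) and FBLN1 (1) held GC boxes, neighbouring ones of which can overlap. No member held an exact match to TATAAA or TGANTCA in this window. Looser forms of these motifs were not searched, so a TATA-like element with other letters would be missed. Over all 35116 promoter entries of the same length, 42.6% held a GC box, 11.9% a TEAD core, 10.7% TATAAA and 6.57% TGANTCA. Both TNC and VTN had the lowest share of G and C of the 10 genes, at 54.8%, beside a median of 58.0% over all promoters. FBLN1 had the highest, 77.6%. These matches are letters in a window and not evidence of binding.

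The neighbours of the 4 genes on the chromosome were read as well, taking the 3 measured genes on each side that passed the filter. Order and distances here go by the lowest annotated coordinate of each gene, whichever its strand. Next to TNC, 5 of 6 neighbours were below 0, and the metalloproteinase PAPPA, 1134 kb away, was at -1.71. Of all 11822 genes kept, 6285 were below 0, and the median of chromosome 9 was itself -0.31. The neighbours of NID2 had a median of 0.34, opposite to NID2 itself, and the highest was FRMD6 at 0.97. The knockdown target FERMT2 is also on chromosome 14, though not among these neighbours, and differed by -1.11. A link between the differences of NID2 and FERMT2 was not tested. Next to FBN1 the adaptor gene SHC4 differed by 2.09 and CEP152 by 0.62, while DUT, the closest on the other side, differed by 0.08. The 6 neighbours of FBN1 had a median of 0.17, with MYEF2 at -0.04 and SQOR at -0.97. Around VTN 5 of 6 neighbours were below 0, with SARM1, 4.41 kb away, at -0.59 and UNC119 at -0.80. With the median of the 50 nearest genes subtracted, the differences were 2.37 for TNC, 1.79 for FBN1, -1.22 for VTN and -1.18 for NID2. In the RefSeq annotation NID2 overlaps the coding gene RTRAF, FN1 overlaps ATIC and THBS1 overlaps FSIP1. The sources used here do not say which strand and exons the probes cover.

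**Figure D3:**
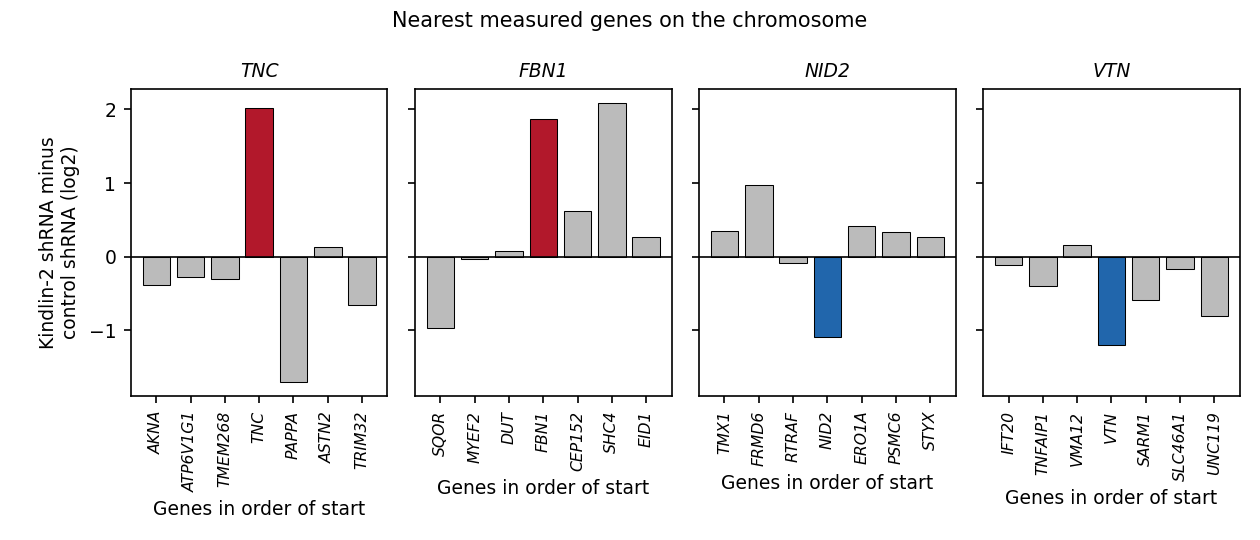
Difference between the arrays (Kindlin-2 shRNA minus control shRNA, log2, vertical axis) of TNC, FBN1, NID2 and VTN (coloured bars) and of the 3 nearest genes on each side that passed the filter (grey bars, in order of lowest annotated coordinate, not to distance). TNC and NID2 point against most of their neighbours, SHC4 beside FBN1 reaches 2.09, and 5 of 6 genes around VTN lie below 0.

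Other genes of the same families, and functional partners such as basement membrane and elastic fibre genes, were followed through fixed lists. These lists too were chosen with earlier results of these arrays known, so the counts below describe them and are not evidence about them. Across 66 of these relatives and partners, without the 10 genes and the receptors, 42 passed the filter, with a median difference of 0.06. Of these 42, 5 were 1.5-fold or more higher, beside 5.1% of all genes kept, and 5 were 1.5-fold or more lower, beside 5.23%. Among the 5 higher genes TINAG passed the filter only through the knockdown array. At 2-fold, none was higher, beside 1.41% of all genes kept, and 1 was lower, beside 1.26%. ECM1, at 0.99, came just past 2-fold in 3 between-array corrections (1.00 to 1.02). The 1 gene that was 2-fold or more lower was FSTL1, a secreted glycoprotein with a follistatin-like domain of the SPARC family. It read 8.21 with Kindlin-2 shRNA and 10.30 with control shRNA and was 4.27-fold lower, a larger decrease than that of VTN or NID2. SPOCK1, a testican proteoglycan of the same family, was 1.64-fold higher, at 10.53 and 9.82, so the 3 measured members of the SPARC family that passed lay at 0.44, 0.71 and -2.09. The other 5 of 8, SPARCL1 among them, were dim.

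In the list of microfibril and elastic fibre genes, FBN1 stood apart from its partners. Of 15 genes 9 passed the filter, and their median difference was 0.05. Besides FBN1, LTBP3, which tethers latent TGF-beta to microfibrils, was 1.61-fold lower, at 8.87 and 9.55. LTBP2 (0.09), LTBP4 (0.20), elastin (ELN, -0.05) and EMILIN1 (0.01) were close to their control values. Among the fibulins, 4 of 7 passed, and EFEMP2 (fibulin-4) and FBLN5, which both take part in elastic fibre assembly, were 1.85-fold and 1.63-fold lower. EFEMP2 read 9.16 with Kindlin-2 shRNA and 10.05 with control shRNA, and FBLN5 read 7.42 and 8.12. FBLN2 was dim and differed by 0.17. The thrombospondins THBS3 (-0.16) and COMP (0.12) were near 0, and THBS2 and THBS4 did not pass.

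The basement membrane partners of the nidogens were all bright enough to pass, 11 of 11 with the nidogens included, at a median of 0.06. The laminin chain LAMC1, which carries the nidogen binding site, was 1.56-fold higher, with 11.10 against 10.45 in the control, or 0.52 on the log2 scale and under 1.5-fold with neighbour medians subtracted. LAMB1 (-0.01), perlecan (HSPG2, -0.02), COL4A1 (-0.29), COL4A2 (0.06), agrin (AGRN, 0.28) and LAMA5 (0.35) differed by less than 1.5-fold. NID2 was therefore the 1 gene of this list past 2-fold. Of 25 other matricellular and adhesive glycoproteins 18 passed, with a median of 0.18, which became 0.078 with chromosome medians subtracted and turned to -0.019 with neighbour medians subtracted. ECM1 (1.98-fold), the matrilin MATN3 (1.92-fold) and the tubular basement membrane protein TINAG (a difference of 0.59) were higher, and EDIL3, a ligand of alpha-v integrins, was 1.54-fold lower. The lower value of TINAG was under the filter floor, and its difference fell just short of 1.5-fold (0.58) after repeated quantile normalisation. Osteopontin (SPP1, -0.04) and TGFBI (0.31) differed little.

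Receptors and binding partners of these proteins had a median of 0.46 over the 11 of 14 measured genes that passed. Of these 11, 9 were above 0, as were 5489 of all 11822 genes kept. At 1.5-fold, 4 were higher and 2 lower, beside 5.1% and 5.23% of all genes kept. The vitronectin receptor subunit ITGB3 read 11.06 with Kindlin-2 shRNA and 9.23 with control shRNA, a difference of 1.83 beside -1.20 for VTN. Its partner ITGAV differed by 0.41. The fibronectin receptor subunits ITGA5 (0.52) and ITGB1 (0.46) were higher by less than 1.5-fold. ITGA5 came past 1.5-fold with its chromosome median (0.73) or neighbour median (0.84) subtracted. ITGA4, which binds an alternatively spliced part of fibronectin, was 2.04-fold higher. ITGA3, mainly a laminin receptor subunit, read 12.29 and 11.29 and lay at the 2-fold threshold. The urokinase receptor PLAUR, which also binds vitronectin, was 1.62-fold higher. ITGB8 (2.01-fold) and ITGB6 (1.56-fold), both partners of alpha-v that activate latent TGF-beta, were lower. Of these, 3 sat so near 2-fold that a correction took them under it: ITGA3 was at 0.94 after repeated quantile normalisation, ITGA4 at 0.99 with its chromosome median subtracted and ITGB8 at -0.79 with the same. The thrombospondin receptor CD47 differed by 0.24, and CD36 was dim, at 3.75 and 3.48.

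**Figure D4:**
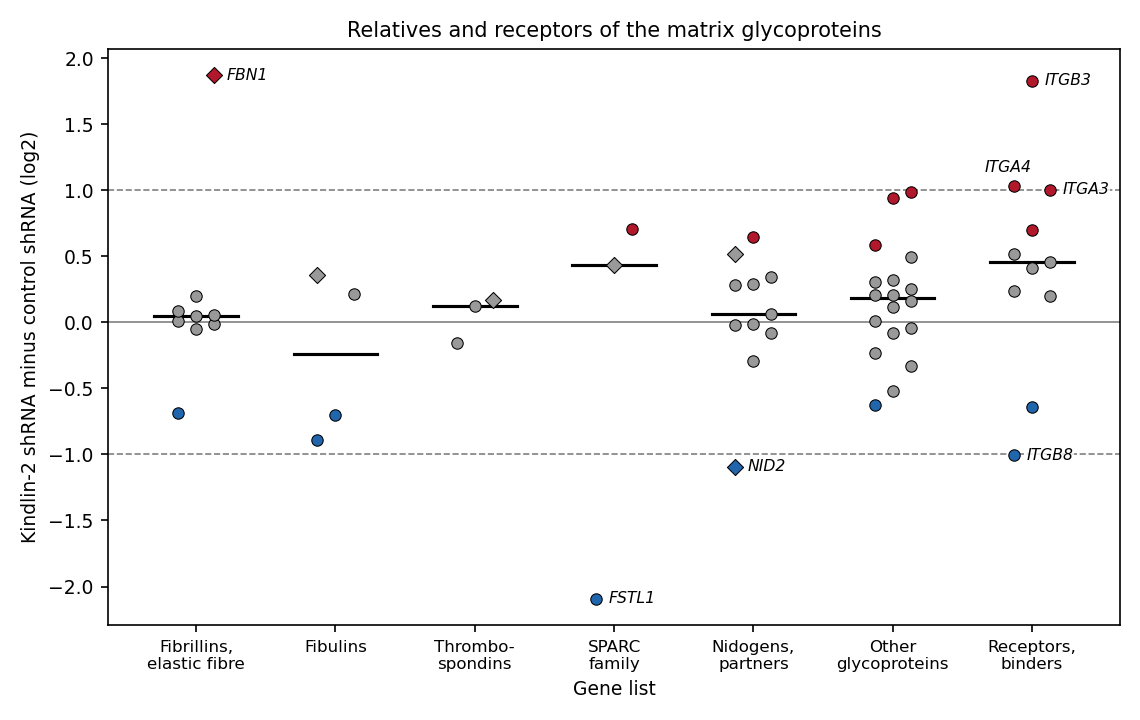
Difference between the arrays (Kindlin-2 shRNA minus control shRNA, log2, vertical axis) of the genes in 7 lists that passed the filter, with diamonds for the matrix glycoproteins described here, circles for other genes, red and blue for readings 1.5-fold or more above and below control, a black bar for the list's median and dashed lines at 2-fold. FBN1, NID2 and FSTL1 lie far from the rest of their lists, and the receptor list has a median of 0.46.

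Markers of other cells were set beside these values, since several of the genes are also typical of stroma. Of the 5 fibroblast markers that passed, COL1A1 (0.17) and THY1 (0.17) were above the floor on both arrays. The other 3 reached it on 1 array only: COL1A2 (-0.02), COL3A1 (0.02) and PDGFRB (-0.77), which was 1.71-fold lower. The sum of the linear signals of all 8 was 2611 with Kindlin-2 shRNA and 2407 with control shRNA, and 482 and 517 without THY1. The 5 smooth muscle and pericyte markers that passed had a median of -0.42. Of these 5, RGS5 (-1.16), ACTA2 (-0.76) and NOTCH3 (-0.08) were above the floor on both arrays, with a median of -0.76. This stricter filter was added after the data were seen. CNN1 (-0.42) reached the floor in the control array only and DES (0.22) in the knockdown array only, and the sum over all 6 was 2001 and 3575. The sums of endothelial markers were 355 and 362 and those of leukocyte markers 259 and 247. Renal epithelial markers had a median of -0.45, or -0.44 over the 7 above the floor on both arrays, and sums of 16279 and 21116. Of the 8, 7 were below 0, as were 6285 of all 11822 genes kept, and EPCAM (0.25) was above. CDH16 (-0.83), whose knockdown value was under the floor, and PAX2 (-0.66) were 1.78-fold and 1.58-fold lower. These were the 2 of 8 at least 1.5-fold lower, beside 5.23% of all genes kept. The part of these shifts in the differences of the matrix genes was not tested. All RNA came from cultures of the ACHN line, so a marker named for another cell type is not by itself a sign of such cells. In bulk RNA, fewer cells of a kind and less RNA per cell cannot be told apart.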

How the data were processed

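The authors deposited log2 values for 33297 transcript clusters on 2 arrays. Per the submitters' processing notes, these came from RMA, run with version 1.4.1 of Affymetrix Expression Console. The sources used here do not say which arrays were normalised together. Clusters with a single platform symbol (19460) were named through Entrez IDs and RefSeq (GRCh38.p14), where 19429 were found; the rest of the clusters had several symbols or none and were not used. A gene was represented by its brightest cluster. Groups came from the shRNA label. With 1 array per group no model was fitted, and the number of arrays limits the precision. Differences, counts past 1.5-fold and 2-fold, and list medians over the genes that passed the filter were computed with pandas 2.3.3 and numpy 2.4.6, and the counting was checked on simulated data. The 10 genes and the lists were chosen with earlier results of these data known. Named were the 10 genes, FERMT2, list members past 2-fold, up to 3 per direction past 1.5-fold, and fixed paralogs; others were named after their values were seen. The planned protein features were not computed. Alternatives covered the fold threshold, filter, between-array correction, cluster choice and regional shifts.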

Additional observations from a re-analysis of the deposited data

How the results depend on the processing

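With 1 array per group, neither biological nor technical spread was measured, and a dim gene such as FBN2 had no detection call. Each of the 10 genes kept its sign and its side of 1.5-fold and 2-fold under the 3 between-array and 2 regional corrections tried. The filter and the cluster choice could not alter these differences, since each gene has 1 cluster. TNC ranged from 2.02 to 2.37, FBN1 from 1.79 to 1.90, VTN from -1.22 to -1.17 and NID2 from -1.18 to -1.06. At 3-fold, 2 genes of the list stayed higher and 0 lower, and over all genes 40 were higher and 44 lower; at 1.5-fold, 603 and 618 were. With the filter at the 75th percentile 1 of the list was lower, since VTN no longer passed, and 102 and 91 of all genes were 2-fold higher and lower, fewer genes being tested. Medians of the matrix and receptor lists moved by over 0.1 in 10 cases. The filter moved fibulins to -0.052 (25th percentile) and -0.89 (75th), thrombospondins to 0.0075 (75th), the SPARC family to 0.18 (no filter) and 0.28 (25th), and receptors to 0.34 (no filter). Subtraction of neighbour medians moved the SPARC family to 0.27, nidogens and partners to 0.20 and other glycoproteins to -0.019, and of chromosome medians the latter to 0.078. In a check added after the data were seen, markers had to reach the floor on both arrays. This moved the median of fibroblast markers from 0.016 to 0.17. It moved that of smooth muscle and pericyte markers from -0.42 to -0.76. No paired analysis was possible because each group has 1 array.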

Other observations

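A few further values were singled out after they were seen. SHC4, a neighbour of FBN1, and PAPPA, a neighbour of TNC, differed by 2.09 and -1.71, each past 2-fold on the log2 scale. MARCHF3, among the nearest measured genes of FBN2, differed by 2.27, while FBN2 itself was dim. The nephronectin gene NPNT, a kidney ligand of integrin alpha-8, differed by -0.52, and ITGA8 was dim on both arrays, at 4.46 and 4.37.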
